A study of Mus musculus with 12 samples.

Results

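A group of 6 genes of the trace amine-associated receptor (*Taar*) family, *Taar2*, *Taar3*, *Taar4*, *Taar5*, *Taar6* and *Taar9*, were followed in the main olfactory epithelium (MOE) of mice that lack the J element, an enhancer of class I odorant receptor (OR) genes on chromosome 7. Olfactory sensory neurons (OSNs) use them as receptors, and they are single genes without the near-identical copies that the *Taar7* and *Taar8* genes have. Each is read by a probe set of its own, a group of probes spread over the exons of the gene. They were picked by symbol from the annotation of the array and make up 6 of 35556 probe sets. Another 9 probe sets carry other *Taar* symbols. The J element deletion (ΔJ) was made by CRISPR-Cas9 in hybrid B6C3F1 eggs and kept as the line of 1 founder, backcrossed to C57BL/6N up to the second generation. Total RNA of the MOE was hybridized to 1 Affymetrix Mouse Gene 1.0 ST array for each of 6 mice homozygous for ΔJ (3 males and 3 females, 5 at P30 and 1 at P33) and 6 wild-type littermates (2 males and 4 females, 4 at P30 and 2 at P33), labelled as C57BL/6. No other allele or agent is given for either group. In whole tissue, fewer cells that express a gene and less RNA in each of these cells cannot be told apart.

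TAARs are G protein-coupled receptors of a family separate from the ORs, and most of those in the nose respond to volatile amines. As with ORs, an OSN expresses 1 receptor gene, here a *Taar* gene in place of an OR gene, and the axons of most of these neurons end in dorsal glomeruli of the olfactory bulb. Neurons that express *Taar* genes and those that express class I OR genes lie largely in the same dorsal zone of the epithelium. *Taar1* is the exception in the family, since it acts in the brain and is not used as an odour receptor. In mice, TAAR3 responds to isoamylamine, TAAR4 to β-phenylethylamine, a compound enriched in carnivore urine, and TAAR5 to trimethylamine, which is abundant in the urine of male mice. Choice of a *Taar* gene depends on enhancers inside the *Taar* cluster itself.

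The family lies in 1 cluster on chromosome 10, so that the deleted element is on another chromosome. By RefSeq (GRCm38.p6), the cluster spans 189129 bp from *Taar1* to *Taar9* and holds 16 *Taar* genes, 15 of them protein coding and 1 a pseudogene. *Taar2* lies at chr10:23938572-23941583, *Taar3* at chr10:23949558-23950589, *Taar4* at chr10:23960494-23961537, *Taar5* at chr10:23970706-23971719, *Taar6* at chr10:23984609-23985646 and *Taar9* at chr10:24108488-24109534. In the order of the *Taar* genes, *Taar2* to *Taar6* follow each other after *Taar1*, and *Taar9* closes the cluster 188.1 kb from the start of *Taar1*. The genes of the *Taar7* and *Taar8* groups lie between *Taar6* and *Taar9*.

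The first 50 genomic bases from the annotated start are shown as a sample of how members and copies of *Taar7* compare at this end of the gene. They are given 5′ to 3′ from RefSeq (GRCm38.p6) on the coding strand, with the start codon in capitals, for 5 members and for *Taar7d* (chr10:24027222-24027271) and *Taar7e* (chr10:24037614-24037663). *Taar6* and *Taar9* are on the minus strand and the others shown on the plus strand.
Taar2: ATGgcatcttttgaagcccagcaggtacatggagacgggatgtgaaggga
Taar3: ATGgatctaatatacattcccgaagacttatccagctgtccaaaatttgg
Taar5: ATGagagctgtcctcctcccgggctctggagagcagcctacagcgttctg
Taar6: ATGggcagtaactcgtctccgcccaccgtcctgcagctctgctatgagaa
Taar9: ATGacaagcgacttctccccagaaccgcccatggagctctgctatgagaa
Taar7d: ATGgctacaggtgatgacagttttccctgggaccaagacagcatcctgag
Taar7e: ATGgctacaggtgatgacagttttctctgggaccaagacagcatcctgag
Compared position by position, any pair of these 5 members shared 11 to 32 of 50 bases, the lowest for *Taar3* and *Taar9* and the highest for *Taar6* and *Taar9*. The window of *Taar2*, whose coding region has an intron, holds a stop codon in frame (tga) and so runs past its first coding exon. Its pairs with the other members, at 13 to 15 bases, thus compare in part intron sequence, which probes over exons do not read. Among 5 *Taar7* genes, a pair shared 25 to 49 bases, the highest for *Taar7d* and *Taar7e*. *Taar8b*, which is not a member, shared 26 bases with *Taar6* and 26 with *Taar9*, within that range. The count allows no gaps, so sequence that is shared but offset is missed. It covers only these 50 bases and does not measure how much of the sequence read by the probes is shared. Each member had a probe set with a single symbol, and probe sets of *Taar7* and *Taar8* copies can share signal.

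All levels are log2 signals minus the 75th percentile of the same array. As a check of the genotype, *Olfr552*, an OR gene of class I near the J element, had a level of -3.33 ± 0.39 in ΔJ mice and -0.66 ± 0.22 in wild-type mice (SD, n = 6 each), and *Olfr544*, another class I gene, -3.40 ± 0.12 in ΔJ mice and -1.57 ± 0.12 in wild-type mice. Their log2 fold changes were -2.67 (limma adjusted p = 6.67e-06) for *Olfr552* and -1.84 (adjusted p = 2.5e-07) for *Olfr544*. Over all 35556 probe sets, limma called 48 at an adjusted p under 0.05 (0.135%), of which 46 were lower (0.129%) and 2 were higher (0.00562%) in ΔJ mice. No measure of detection for single probe sets was used here, and every signal includes background, which pulls a ratio towards 1. There were 2 sets of arrays that differed in how widely their values spread. The standard deviation over an array was 2.20 to 2.23 for replicates 4 to 6 of both genotypes (array set 2) and 2.07 to 2.13 for replicates 1 to 3 (array set 1). The labels do not say what the sets are, and each holds 3 ΔJ and 3 wild-type mice. The P33 mice, ΔJ replicate 6 and wild-type replicates 5 and 6, are all in array set 2. Every mouse of array set 1 is P30. Array set 2 also holds P30 mice, ΔJ replicates 4 and 5 and wild-type replicate 4, so age and array set are separate only in part.

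None of the 6 *Taar* genes passed the test between genotypes. Their log2 fold changes, ΔJ over wild-type, ran from -0.07 for *Taar6* to 0.14 for *Taar2*, with adjusted p of 0.993 to 0.997 from limma. By the same test 0 of the 6 had an unadjusted p under 0.05, against 1185 of all probe sets (3.33%). In every one of the 6 genes the levels of the ΔJ mice overlapped those of the wild-type mice, and over the array the genotypes did not overlap in 107 probe sets (0.301%).

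*Taar3*, the isoamylamine receptor of mice, was measured at -0.25, -0.48, -0.35, -1.01, -1.51 and -0.91 in ΔJ replicates 1 to 6, against -0.41, -0.62, -0.61, -0.96, -1.04 and -1.18 in wild-type replicates 1 to 6. The highest and the lowest mouse were both ΔJ, and the last 3 replicates of both genotypes were below the first 3. The means were -0.75 ± 0.48 in ΔJ mice and -0.80 ± 0.30 in wild-type mice (SD, n = 6 each). The log2 fold change was 0.05 (standard error 0.21, 95% confidence interval -0.40 to 0.51, limma adjusted p = 0.995), so the signal in ΔJ mice was 104% of that in wild-type mice, with an interval of 75.6% to 142%.

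*Taar4*, the receptor of β-phenylethylamine, had levels of -1.10, -1.32, -1.33, -1.60, -1.99 and -1.67 in the ΔJ mice, against -1.24, -1.40, -1.38, -1.67, -1.70 and -1.73 in the wild-type mice, again in the order of the replicate numbers. ΔJ replicate 5 stood lowest, and the other 11 mice lay between -1.73 and -1.10. The averages were -1.50 ± 0.32 in ΔJ mice and -1.52 ± 0.21 in wild-type mice (SD, n = 6 each). With a log2 fold change of 0.02 (standard error 0.14, limma adjusted p = 0.997), ΔJ mice had 101% of the wild-type signal, with a 95% interval of 81.4% to 126%.

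For *Taar5*, the trimethylamine receptor, the ΔJ mice gave -1.70, -1.71, -1.84, -2.26, -1.82 and -1.93, and the wild-type mice -1.81, -1.73, -1.53, -2.18, -2.01 and -2.06. Here replicate 4 was the lowest mouse of either genotype. The mean level was -1.88 ± 0.21 in ΔJ mice and -1.89 ± 0.24 in wild-type mice (SD, n = 6 each), a log2 fold change of 0.01 (standard error 0.12, limma adjusted p = 0.997). This is 101% of the wild-type signal, with an interval of 83.8% to 121%.

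*Taar2* has an intron within its coding region, unlike the other olfactory *Taar* genes, and had the largest of the 6 fold changes. Its levels were -2.16, -2.24, -2.24, -2.42, -2.66 and -2.52 in ΔJ mice, against -2.30, -2.52, -2.28, -2.55, -2.75 and -2.65 in wild-type mice. Each ΔJ mouse was above the wild-type mouse of the same replicate number, while the groups as a whole overlapped. The labels do not pair mice by these numbers, and same-numbered mice are of the same sex only for replicate 4. The means were -2.37 ± 0.19 in ΔJ mice and -2.51 ± 0.19 in wild-type mice (SD, n = 6 each). The log2 fold change of 0.14 (standard error 0.11, limma adjusted p = 0.993) amounts to 109.9% of wild-type signal, with an interval of 93.5% to 129%. With the replicate number as a block in the limma fit, the unadjusted p was 0.0254 and the smallest adjusted p of the 6 genes was 0.618. The replicate numbers follow the array sets. With only the array set as a block, the limma values were 0.0488 and 0.621.

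*Taar6* and *Taar9* are transcribed in the opposite direction to *Taar2*, *Taar3* and *Taar5*. *Taar6* had levels of -1.03, -1.24, -1.24, -1.49, -1.95 and -1.15 in ΔJ mice, against -1.24, -1.17, -1.07, -1.47, -1.24 and -1.50 in wild-type mice. ΔJ replicate 5 lay below all others, and ΔJ replicate 1 above all others. The level averaged -1.35 ± 0.33 in ΔJ mice and -1.28 ± 0.17 in wild-type mice (SD, n = 6 each), a log2 fold change of -0.07 (standard error 0.14, limma adjusted p = 0.993), which puts the signal in ΔJ mice at 95.5% of wild-type with an interval of 77.1% to 118%.

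*Taar9*, a receptor that responds to polyamines in mice, had the largest spread of the 6 among ΔJ mice. It was at -0.23, -0.31, -0.76, -1.34, -1.68 and -0.85 in ΔJ mice, against -0.71, -0.61, -0.70, -0.95, -1.34 and -1.21 in wild-type mice. Both the 2 highest levels and the lowest came from ΔJ mice. The averages were -0.86 ± 0.57 in ΔJ mice and -0.92 ± 0.30 in wild-type mice (SD, n = 6 each), and the log2 fold change was 0.06 (standard error 0.24, limma adjusted p = 0.995). The interval of its signal in ΔJ mice, 72.9% to 149% of wild-type, was the widest of the 6.

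**Figure D1:**
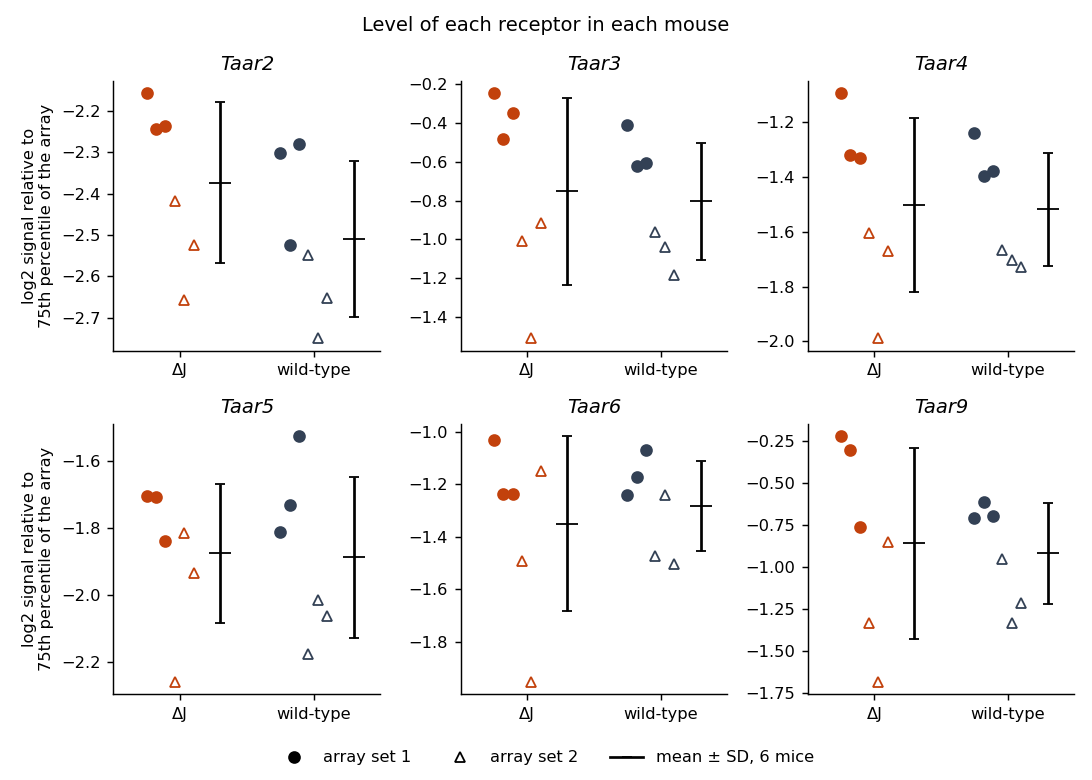
Log2 signal relative to the 75th percentile of the array (vertical axis) of each of the 6 genes in each mouse, ΔJ left and wild-type right, in the order of the replicate numbers, filled circles for array set 1 and open triangles for array set 2, with mean ± SD of 6 mice. Each panel has its own vertical scale. The genotypes overlap in all 6 genes, and the means of *Taar4* are -1.50 in ΔJ mice and -1.52 in wild-type mice.

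The class I OR genes give the scale of change on the same arrays. For the 6 *Taar* genes, the median log2 fold change was 0.03 and 5 of the 6 were above 0, while the median of all probe sets was -0.03 with 39.8% above 0. The count above 0 was 1 of 6 without ΔJ replicate 1 or ΔJ replicate 2 and 2 of 6 without wild-type replicate 5 or 6. It was 3 of 6 without ΔJ replicate 3 or wild-type replicate 4, and 5 of 6 without any other single mouse. The mice whose absence lowered it were thus the ΔJ mice of array set 1 and the wild-type mice of array set 2. These fits hold no term for the array set, and the part of the sets in the counts was not tested. The count was 5 of 6 with the array set as a block and 1 of 6 in P30 mice alone, which leaves out mice of array set 2 only. It was 2 of 6 with age and 3 of 6 with sex as a covariate, and 6 of 6 with array weights. Of 117 probe sets with 1 symbol of a protein-coding class I gene (116 symbols), 40 were called lower and 0 higher, with a median log2 fold change of -0.51. The 40 called probe sets had 15.7% to 72% of the wild-type signal, with a median of 49.5%. The lower ends of the intervals of the 6 *Taar* genes, 72.9% to 93.5%, were all above that median. The 40 were picked by the same test, which favours large drops. Against all 117 class I probe sets the gap was smaller. The lowest of the lower ends, -0.46 on the log2 scale for *Taar9*, was close to their median of -0.51. Of 902 probe sets of protein-coding OR genes outside the class I cluster (895 symbols, called class II here, with *Olfr504*, a class I gene by its sequence, among them), 0 were called at an adjusted p under 0.05 by limma and 9 had an unadjusted p under 0.05, with a median of -0.03 and a range of -0.42 to 0.52. The plot of the fold changes of these receptor groups shows the *Taar* genes inside the spread of the class II probe sets.

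**Figure D2:**
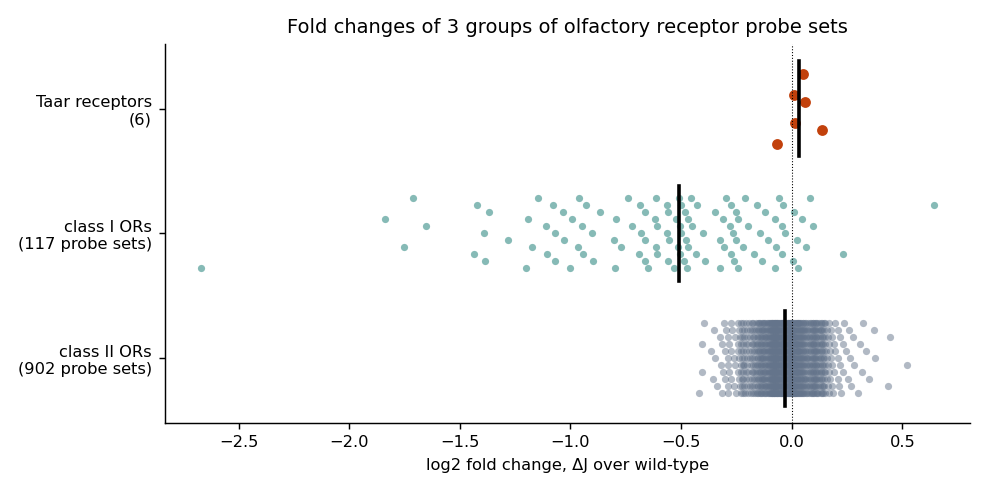
Log2 fold change, ΔJ over wild-type (horizontal axis), of the 6 *Taar* genes, 117 class I OR probe sets and 902 class II OR probe sets (OR genes outside the class I cluster), 1 point per probe set with a black bar at the median of each group (vertical position within a group only spreads the points). The medians are 0.03 for *Taar* genes, -0.51 for class I and -0.03 for class II probe sets.

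None of the other 9 *Taar* probe sets passed the test or had an unadjusted p under 0.05. Their log2 fold changes ran from -0.23 for *Taar1* to 0.13 for *Taar7d*, with a median of 0.05. *Taar1*, the member used in the brain, was at -4.33 ± 0.36 in ΔJ mice and -4.10 ± 0.32 in wild-type mice (SD, n = 6 each). Log2 fold changes, with standard errors in brackets, were 0.13 (0.10) for *Taar7b*, 0.0012 (0.19) for *Taar7e*, 0.07 (0.19) for *Taar7f*, 0.09 (0.29) for *Taar8b* and -0.04 (0.24) for *Taar8c*. The probe set that names 5 *Taar7* genes had 0.04 and the one that names 3 *Taar8* genes 0.05.

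The genes around the cluster did not pass the test either. Of 10 neighbours with a probe set on each side, 0 were called and 0 had an unadjusted p under 0.05 in the limma fit, and their log2 fold changes ran from -0.32 to 0.19. The nearest on the side of *Taar1* were *Vnn1* at -0.15 (standard error 0.18) and *Vnn3* at -0.12 (0.14), which encode pantetheinases. Next to *Taar9*, *Stx7*, a syntaxin of endosomes, was at 0.08 (0.11) and *Moxd1*, a monooxygenase-like gene, at -0.02 (0.08).

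**Figure D3:**
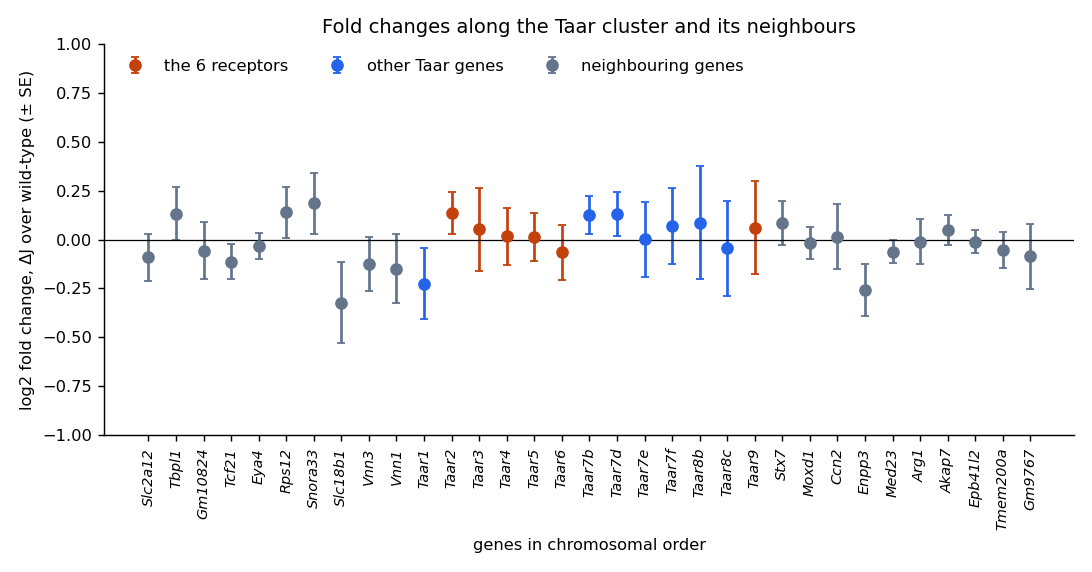
Log2 fold change, ΔJ over wild-type, with its standard error (vertical axis) for *Taar* genes with a probe set of their own and 10 neighbouring genes on each side, in chromosomal order (horizontal axis, not to scale). Values run from -0.32 to 0.19 among neighbours and from -0.23 to 0.14 within the cluster, and none passed the test.

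Genotype differences of the 6 genes within array set 2 were -0.08 for *Taar3*, -0.06 for *Taar4*, 0.08 for *Taar5*, 0.12 for *Taar2*, -0.13 for *Taar6* and -0.12 for *Taar9*. Within array set 1 they were 0.19 for *Taar3*, 0.09 for *Taar4*, -0.06 for *Taar5*, 0.16 for *Taar2*, -0.01 for *Taar6* and 0.24 for *Taar9*. *Taar3*, *Taar4*, *Taar5* and *Taar9* thus had opposite signs in the 2 sets, and *Taar2* was above 0 and *Taar6* below 0 in both. The difference between the sets was tested as an interaction in limma, and the smallest adjusted p of the 6 genes was 0.909.

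The levels of the 6 genes also moved with the array set. With genotype and sex but not age in the limma model, all 6 genes were called lower in array set 2. The P33 mice are all in that set, so the difference between the sets can hold a part of age. Of all probe sets 14716 were called (41.4%), 11012 of them lower (31%) and 3704 higher (10.4%). *Taar9* averaged -1.23 in array set 2 and -0.55 in array set 1 (log2 difference -0.64, standard error 0.14, adjusted p = 0.00395). *Taar3* averaged -1.10 in array set 2 and -0.45 in array set 1 (difference -0.64, standard error 0.11, adjusted p = 0.00104). In both genes every mouse of array set 2 was below every mouse of array set 1, and the same held for *Taar4* (difference -0.42, adjusted p = 0.00158). This includes the P30 mice of array set 2, ΔJ replicates 4 and 5 and wild-type replicate 4. In *Taar3* they were at -1.01, -1.51 and -0.96, against a lowest level of -0.62 in array set 1. The part of age in the difference was not tested. *Taar5*, *Taar2* and *Taar6* differed by -0.30, -0.30 and -0.26, with adjusted p of 0.00995, 0.00435 and 0.0441, and their sets overlapped. These last 3 calls depended on the scaling. On the values as deposited and after quantile normalization 3 of the 6 genes, *Taar3*, *Taar4* and *Taar9*, were called lower, and 5 after a shift by the median, with *Taar6* not called. The share of all probe sets called lower was 16.4% on the values as deposited, 19.2% after quantile normalization and 21.4% after the median shift. The share of lower among all calls between the sets was 74.8% after the 75th percentile shift, 40.3% on the values as deposited and 55.4% after quantile normalization. *Taar6* also lost its call when ΔJ replicate 1 or 3 or wild-type replicate 1, 2, 4, 5 or 6 was left out, with differences of -0.26 to -0.22 and adjusted p of 0.0656 to 0.118. All 6 differences stayed below 0 under each of these scalings.

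**Figure D4:**
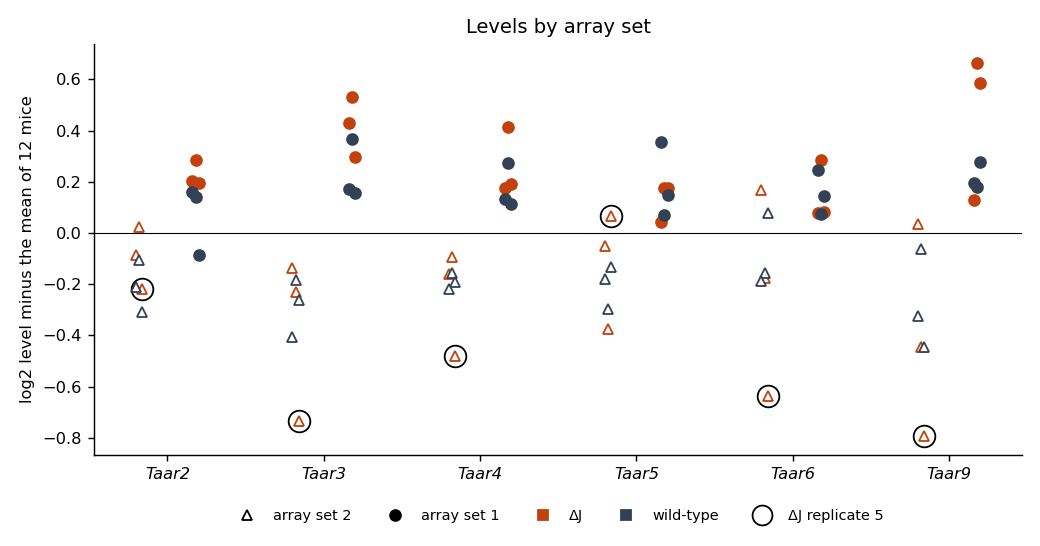
Log2 level of each mouse minus the mean of the 12 mice (vertical axis) for each gene, open triangles for array set 2 left of filled circles for array set 1, coloured by genotype, with ΔJ replicate 5 ringed. In *Taar3*, *Taar4* and *Taar9* the sets do not overlap, and ΔJ replicate 5 is the lowest of the 12 mice in these genes and in *Taar6*.

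ΔJ replicate 5 was the lowest mouse in *Taar3* (-1.51, with the other 5 mice of array set 2 between -1.18 and -0.91), *Taar4* (-1.99, others -1.73 to -1.60), *Taar6* (-1.95, others -1.50 to -1.15) and *Taar9* (-1.68, others -1.34 to -0.85). In *Taar5* it was the highest of array set 2, at -1.82 against -2.26 to -1.93 in the others, and in *Taar2* the second lowest. The same array was also lowest in array set 2 in the mean level of 14 transduction genes such as *Gnal* and *Gnb1* (2.06, others 2.21 to 2.28), of 14 genes of receptor choice such as *Lhx2* and *Ldb1* (1.39, others 1.58 to 1.71) and of 7 markers of mature OSNs (3.37, others 3.47 to 3.55). It was also lowest for 5 sustentacular markers (3.63, others 3.72 to 3.79) and 6 basal and progenitor markers (-0.374, others -0.211 to -0.0806), and highest for 3 dorsal zone genes (2.46, others 2.31 to 2.38). In all, of 16 lists it was lowest in 8 and highest in 1. Some lists share genes, such as *Gnal* in those of transduction and of mature OSNs, so the counts are not of separate genes. The part of these list levels in the low *Taar* levels was not tested. Without this mouse the log2 fold changes were 0.20 for *Taar3*, 0.11 for *Taar4*, 0.05 for *Taar6* and 0.22 for *Taar9*, and 0 of the 6 genes were called by limma, with none at an unadjusted p under 0.05.

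None of the 6 genes passed the test between males and females. With genotype and array set in the limma model, 5 probe sets of the whole array were called between the sexes (0.0141%), 4 higher in males (0.0112%) and 1 lower (0.00281%), and 0 of the 6 genes. *Taar6* came closest of the 6. The 5 males were at -1.03, -1.24 and -1.15 in ΔJ and at -1.07 and -1.24 in wild-type mice. The 7 females ran from -1.95 to -1.17 with a median of -1.47, and the lowest was ΔJ replicate 5. The fitted difference of *Taar6*, male minus female, was 0.27 (95% confidence interval 0.06 to 0.48), with an adjusted p of 0.61 in limma and an unadjusted one of 0.0166. At an unadjusted p under 0.05 there were 2889 probe sets (8.13%). The differences of the other 5 genes lay between 0.01 for *Taar2* and 0.24 for *Taar9*. Among the other *Taar* probe sets, 3 had an unadjusted p under 0.05 in limma and none was called. They were that of 3 *Taar8* genes (0.00131), *Taar1* (0.00349) and *Taar8c* (0.0263), each with an adjusted p of 0.61. In the test for a genotype effect that differs by sex, the smallest adjusted p of the 6 genes was 0.395 in limma.

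Levels of the 6 genes were next compared with each other over the 3 ΔJ and 3 wild-type mice of 1 array set at a time, 30 correlations in all. *Taar3* and *Taar4* had the highest r of the 15 pairs in both sets. It was 0.938 in array set 2 (exact permutation p = 0.0222, two-sided, 0.198 after Benjamini-Hochberg adjustment, Spearman rho 0.771 with exact p = 0.103) and 0.855 in array set 1 (exact permutation p = 0.0194, adjusted 0.198, Spearman rho 0.83 with exact p = 0.0583). Without the 2 mice farthest from the median of *Taar3*, r was 0.01 in array set 2 and 0.57 in array set 1. Leaving out the farthest mice narrows the range and by itself tends to lower r. This check therefore cannot decide whether the relation rests on those mice. In array set 2, *Taar3* also had an r of 0.886 with *Taar6* and of 0.844 with *Taar9*, and both pairs failed the adjustment as well (exact permutation, adjusted p = 0.198 each). Without ΔJ replicate 5 they were 0.52 with *Taar6* and 0.60 with *Taar9*, and that of *Taar3* and *Taar4* was 0.57.

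*Taar5* was the gene with a negative r with all 5 others in array set 2. Its r with the other 5 genes lay between -0.81 for *Taar4* (exact permutation p = 0.0333, adjusted 0.200) and -0.27 for *Taar6*. Of these signs 3 rest on 1 mouse, since without ΔJ replicate 5 it was 0.064 with *Taar3*, 0.821 with *Taar6* and 0.386 with *Taar9*. In array set 1 it was 0.69 with *Taar6* and -0.51 with *Taar3*. Of 15 pairs, 10 were positive in array set 2 (median r 0.443) and 13 in array set 1 (median r 0.377), and 0 of the 30 correlations passed after adjustment, against 5 at an unadjusted p under 0.05 by the exact permutation test. The 6 genes share the array and its scaling in each mouse.

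**Figure D5:**
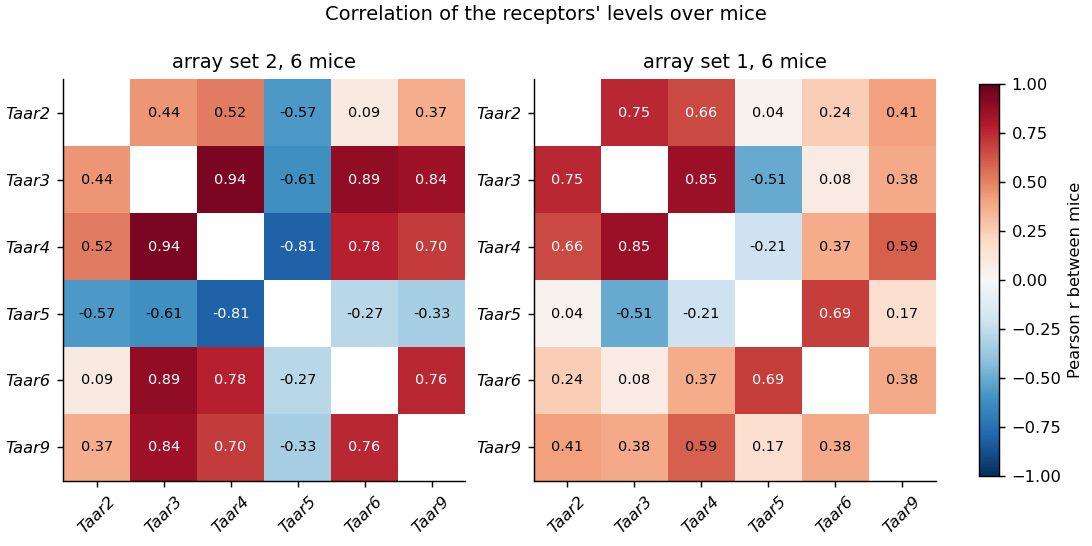
Pearson r (colour and number) between the levels of each pair of genes over the 6 mice of array set 2 (left) and the 6 mice of array set 1 (right). *Taar3* and *Taar4* are at 0.94 and 0.85, and *Taar5* has negative values with all 5 others in array set 2, of which 3 are above 0 without ΔJ replicate 5. None of the 30 values passed after adjustment.

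Among 21776 probe sets of 1 symbol outside the family, those most like the mean level of the 6 genes over the 12 mice, with genotype and array set means taken out, were *Olfr916* (r = 0.985), *Lgi1* (0.975), *Olfr393* (0.965), *Tmem150c* (0.963) and *Olfr6* (0.955). Of these, 3 are OR genes, *Lgi1* encodes a secreted protein of neurons, and *Tmem150c* a membrane protein. In all, 136 probe sets had an r of at least 0.9, of which 39 were OR genes (28.7%), while OR genes made up 4.75% of all those compared. Without ΔJ replicate 5, 6 probe sets reached an r of 0.9. *Olfr916*, *Lgi1*, *Olfr393* and *Tmem150c* were among these, at 0.970, 0.949, 0.906 and 0.915, and *Olfr6* was at 0.869. None of the 5 passed the test between genotypes (limma adjusted p of 0.993 to 0.998). Over the same 12 mice, r with the mean of the 6 genes was 0.90 for *Taar7e*, 0.835 for *Taar7d*, 0.701 for *Taar7b*, 0.56 for *Taar7f*, 0.432 for *Taar1*, 0.161 for *Taar8c* and -0.256 for *Taar8b*. Without ΔJ replicate 5 it was 0.683 for *Taar7e*, 0.589 for *Taar7d*, 0.385 for *Taar7b*, 0.18 for *Taar7f*, 0.413 for *Taar1*, 0.0832 for *Taar8c* and 0.181 for *Taar8b*. The points share array, scaling and tissue sample, and these r values are a description.

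The machinery that TAAR neurons share with other OSNs was measured on the same arrays. Of 17 probe sets of transduction genes, among them *Gnal*, the olfactory G protein, and *Gnb1*, its β subunit, 0 were called and log2 fold changes ran from -0.24 to 0.10. The 4 probe sets of receptor export genes, with *Rtp1* and *Rtp2*, which carry receptors to the cell surface, lay between -0.02 and 0.04. Of 15 probe sets for genes of receptor choice, such as *Lhx2* and its partner *Ldb1*, 0 were called (-0.13 to 0.11). Genes of the dorsal zone (*Nqo1*, *Acsm4* and 1 other) were between -0.08 and 0.05, and those of the ventral zone (*Ncam2* and *Nrp2*) were at -0.03 and 0.10. Enzymes that make or degrade amines, with *Ddc*, which makes trace amines from amino acids, and *Maoa*, which degrades them, ran from -0.24 to 0.19 over 11 probe sets with 0 called. Across these 6 lists, 0 probe sets had an unadjusted p under 0.05 in limma.

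Markers of the cells in the tissue did not pass the test between genotypes in any of 10 lists. The mean level of 7 mature OSN markers ranged over 3.37 to 3.55 in the ΔJ group, against 3.37 to 3.52 in the wild-type group, and that of 5 sustentacular markers over 3.63 to 3.77 in the ΔJ group, against 3.65 to 3.79 in the wild-type group, as the labelled tissue holds both cell types. Immature OSN markers had mean levels of 1.82 to 1.95 in the ΔJ group, against 1.74 to 1.96 in the wild-type group. The widest range was that of the only listed blood gene with a probe set of 1 symbol. It ran from -1.64 to 0.59 in the ΔJ group, against -1.51 to -0.47 in the wild-type group. Over the 10 lists, 1 probe set, in the list for neurons that use guanylyl cyclase D, had an unadjusted p under 0.05 in limma.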

How the data were processed

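RNA of total MOE was hybridized to 1 array per mouse. The deposited table has 35556 probe sets as rows and a column of log2 signals per array. Per the submitters' processing notes these came from Affymetrix Expression Console. Not given in the sources used here are its version and how it treated background and summarized probes. A shift by the 75th percentile is stated in the methods and was applied here to the deposited log2 values. Genotypes were taken from the labels. The platform annotation gave 1 symbol for 21789 probe sets, several for 1621 and none for 12146. Gene positions and start sequences came from RefSeq tables of GRCm38.p6.

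The main model held only genotype and was fitted to all 35556 probe sets by lmFit and eBayes (limma 3.58.1, R 4.3.3). P-values were adjusted by Benjamini-Hochberg and probe sets called at an adjusted p under 0.05. Sex was tested with genotype and array set in the model. The comparison of array sets and ΔJ replicate 5 were taken up after the values were seen. The litter of each mouse is not given, so p-values measure the spread between these mice. In the main model this spread includes the difference between the array sets, which widens the intervals of genes that differ between them. For *Taar3* the SD within a genotype was 0.48 in ΔJ and 0.30 in wild-type mice. Its residual SD after genotype and array set was 0.19. The number of arrays limits the precision. On data simulated for ΔJ against wild-type over 35556 probe sets, the share called was 14% at a change of 1.3-fold, 46% at 1.5-fold, 78% at 2-fold and 100% at 4-fold, with 5 false calls among 35356.

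The members and gene lists were chosen with earlier results of these data known. Named are the 6 genes, the other *Taar* probe sets, the first 2 genes of each of 6 lists of function, the 2 nearest neighbours on each side, *Olfr552* and *Olfr544*, and the 5 genes most like the members. The 10 marker lists are given by their counts and mean levels. Of 109 listed genes, 101 had a probe set. The lists were read through probe sets of 1 symbol, so a gene read only by a probe set of several symbols is left out. Intervals are 95% confidence intervals of the limma fit. Deviations of same-numbered mice from their genotype means correlated at 0.365, 0.294, 0.419, 0.441, 0.185 and 0.385 for replicates 1 to 6, so the replicate number was also fitted as a block. The numbers follow the array sets, and the labels do not say what else they share. No 2 arrays held identical values.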

Additional observations from a re-analysis of the deposited data

How the results depend on the processing

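Under every setting tried for ΔJ against wild-type (other scalings, covariates, a filter on dim probe sets, other variance models, each array set alone and each mouse left out), 0 of the 6 *Taar* genes and 0 of the other *Taar* probe sets tested (5 of 9 with the filter) were called. The smallest adjusted p of the 6 was 0.433, with array weights, where *Taar2*, *Taar3* and *Taar9* had an unadjusted p under 0.05. This setting raised the fitted log2 fold change to 0.30 for *Taar2*, 0.40 for *Taar3*, 0.24 for *Taar4* and 0.44 for *Taar9*. *Taar2* also had one with the replicate number as a block (0.0254), with the array set as a block (0.0488) and after quantile normalization (0.0326). With the replicate block 51 probe sets of the array were called, and it changed no call of a *Taar* gene. The number of all calls was 15 in array set 1 alone, 19 in array set 2 alone and 28 in P30 mice alone, settings with fewer mice, and 1185 at an unadjusted p under 0.05. Leaving out 1 mouse gave 33 to 44. Between the sexes 0 of the 6 genes were called under each setting, and 5 to 8 of all probe sets with 1 mouse left out.

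Many values changed sign, none of them called, and the cause was not tested. In array set 1 alone, *Taar5* was at -0.059, the probe set of 5 *Taar7* genes at -0.067, *Stx7* at -0.020 and *Moxd1* at 0.0030. In array set 2 alone, *Taar3* was at -0.082, *Taar4* at -0.057, *Taar9* at -0.12 and *Taar7e* at -0.14. With sex as a covariate, *Taar4* was at -0.0058, *Taar5* at -0.019 and *Taar7e* at -0.048. With age as a covariate, *Taar3* was at -0.0072, *Taar4* at -0.027, *Taar5* at -0.016, *Taar7e* at -0.035 and *Taar8b* at -0.035. In P30 mice, *Taar3* was at -0.069, *Taar4* at -0.048, *Taar5* at -0.052, *Taar9* at -0.12, *Taar7e* at -0.11, *Taar7f* at -0.043, *Taar8b* at -0.13, the probe set of 5 *Taar7* genes at -0.0083 and that of 3 *Taar8* genes at -0.0027. After a median shift *Moxd1* was at 0.025. With array weights, *Taar6* was at 0.097, *Taar1* at 0.059, the probe set of 5 *Taar7* genes at -0.054, *Taar8c* at 0.32, *Vnn3* at 0.061, *Vnn1* at 0.14 and *Moxd1* at 0.087.

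With 1 mouse left out, log2 fold changes ran from -0.048 to 0.20 for *Taar3*, -0.065 to 0.11 for *Taar4*, -0.046 to 0.088 for *Taar5*, -0.13 to 0.054 for *Taar6*, -0.067 to 0.22 for *Taar9*, -0.080 to 0.16 for *Taar7e*, -0.017 to 0.17 for *Taar7f*, -0.035 to 0.095 for the probe set of 5 *Taar7* genes, -0.13 to 0.23 for *Taar8b*, -0.16 to 0.086 for *Taar8c*, -0.022 to 0.13 for the probe set of 3 *Taar8* genes and -0.064 to 0.021 for *Moxd1*. Those of *Taar2* stayed above 0, from 0.088 to 0.19. The highest value of *Taar3*, *Taar4*, *Taar6* and *Taar9* came without ΔJ replicate 5 and the lowest without ΔJ replicate 1. Between array sets, 3 of the 6 genes were called on the values as deposited (14431 of all probe sets), 3 after quantile normalization (12324) and 5 to 6 with 1 mouse left out (12293 to 16565). The 0 correlations between members that passed stayed 0 on the values as deposited and after quantile normalization. In the 7 females, which lack a Y chromosome, mean levels were -3.72 for *Kdm5d*, -4.69 for *Uty* and -4.99 for *Eif2s3y*, all Y-linked. Background differs between probe sets and was not measured for each, which limits what can be said of dim ones such as *Taar1*, *Taar8b* and *Taar8c* and of the ΔJ levels of *Olfr552* and *Olfr544*.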
